A study of Mus musculus with 9 samples.

Results

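Cytosolic ribosomal protein genes were followed through LPS stimulation and LXR agonist treatment of bone-marrow-derived macrophages (BMDMs). They were chosen by symbol, as genes named Rpl or Rps and a number together with Rplp0, Rplp1, Rplp2 and Rpsa, leaving out the Rps6k kinases and named pseudogenes. The rule gave 87 of the 24061 gene symbols in the count table, 52 of the large (60S) subunit series and 35 of the small (40S) subunit series. It used names only, and no measured value. By its spelling it also took in Rpl7l1 and Rps19bp1, whose products act in the nucleolus and are not constituents of the mature ribosome, and several paralogs of ribosomal proteins.

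The cells were primary macrophages grown from C57BL/6J bone marrow in L-cell conditioned medium and deprived of serum for a day before treatment. The Veh group received DMSO for 3 hr. The LPS group received DMSO for 3 hr and then 10 ng/mL of lipopolysaccharide, a bacterial Toll-like receptor 4 agonist, for 2 hr. The T0+LPS group received 500 nM of the LXR agonist T0901317 (T0) for 3 hr and then the same LPS for 2 hr with the agonist still present. All groups had the same culture and solvent, each held 3 libraries from separately differentiated cultures, and no group received T0 without LPS. Whether the Veh wells were collected at the same hour as the LPS wells is not given in the sources used here.

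Each ribosome carries 1 copy of nearly every ribosomal protein, so cells keep the mRNAs of this family in step. Their mRNAs typically begin with a C followed by an unbroken stretch of pyrimidines, the 5′ terminal oligopyrimidine (TOP) tract, through which the mTOR kinase and the RNA-binding protein Larp1 control how much of the mRNA is translated. In macrophages the family belongs to the most abundant polyadenylated RNAs, and its products are parts of the ribosomes that make a stimulated cell's secreted protein. RNA-seq of whole cells measures the mRNA alone and not its loading onto ribosomes. In such bulk samples fewer cells of a type and less RNA per cell cannot be told apart.

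The pyrimidine stretch could be seen around the annotated transcription starts. RefSeq promoter sequences of build GRCm38.p6 were matched to 64 of the 87 genes. For 7 of them 60 bases are given, from 40 before the start, on the strand of the gene, with the longest run of C or T within 50 bases of the start in capitals. Rpl7a is shown for the longest run in the family, Rps6, Rps18, Rplp2 and Rps9 as members of both subunits picked for a run at the start, and Rpl7l1 and Rps19bp1 because the expression results return to them.
Rpl7a (chr2:26910767-26910826, plus strand): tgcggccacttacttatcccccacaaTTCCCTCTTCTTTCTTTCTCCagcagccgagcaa
Rps6 (chr4:86857348-86857407, minus strand): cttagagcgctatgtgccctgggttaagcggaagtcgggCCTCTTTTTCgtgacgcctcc
Rps18 (chr17:33955646-33955705, minus strand): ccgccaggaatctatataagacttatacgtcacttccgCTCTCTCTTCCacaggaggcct
Rplp2 (chr7:141447611-141447670, plus strand): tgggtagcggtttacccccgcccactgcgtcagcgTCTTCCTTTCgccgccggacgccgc
Rps9 (chr7:3704001-3704060, plus strand): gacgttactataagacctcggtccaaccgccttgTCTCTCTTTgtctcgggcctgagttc
Rpl7l1 (chr17:46782637-46782696, minus strand): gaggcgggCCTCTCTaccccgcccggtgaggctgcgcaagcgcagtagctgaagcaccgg
Rps19bp1 (chr15:80264287-80264346, minus strand): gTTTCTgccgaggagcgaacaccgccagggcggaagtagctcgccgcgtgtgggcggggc

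In the first 5 the capitals run across the start, and they measured 21 bases in Rpl7a, 10 in Rps6, 11 in Rps18, 10 in Rplp2 and 9 in Rps9. In Rpl7l1 the longest run was 7 bases and began 32 bases before the start, and in Rps19bp1 it was 5 bases and began 39 before it. Short runs were not particular to these 2: 14 of 64 members had a run under 8, among them Rps28 with 5, Rpl24 and Rps3 with 6 and Rplp0 with 7. The longest run covered the base just before or after the annotated start in 13 of 64 members and in 8.18% of all promoters. A run of at least 8 was present within 50 bases of the start in 50 of 64 members (78.1%) and in 35.7% of all 32851 promoters. The median longest run was 10 bases in the family and 7 over all promoters.

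Short factor motifs were counted on both strands of 300 bases, 250 before and 50 after the start. The core CGGAAGT, bound by GABP and other ETS factors, was found in 23 of 64 members (35.9%) against 6.42% of all promoters, and it can be read in the Rps6 and Rps19bp1 lines and on the other strand in the Rps18 line. A YY1 core, AAGATGGC, was found in 6 members (9.38%) against 2.75%. The E-box CACGTG, a site of Myc and its relatives, was found in 5 members (7.81%), close to the 7.15% of all promoters. A pyrimidine run can take in part of a GABP core on the other strand, and overlaps were not removed. These matches describe letters in these windows only.

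The depth was even, with 13299044 to 16467983 counted reads a library, and within each group every pair of libraries differed by more than sampling noise. The treatments could be read from their known targets. Il1b, an inflammatory cytokine, was at 0.695 to 3.07 CPM (reads scaled to library size) in Veh, 1006 to 1277 in LPS and 755 to 918 in T0+LPS, while the LXR target Abca1 was at 724 to 733, 1662 to 1963 and 4918 to 5287 CPM in the same order. Of the macrophage markers, Csf1r was at 3620 CPM or more and Lyz2 at 18987 CPM or more in every library. Emr1 was at 2618 CPM or more and Cd68 at 524 CPM or more, while Mertk was at 34.0 to 76.9 CPM and Itgam had no read. Bases shared between transcripts carry no reads in these counts, as described below, so a level of 0 need not mean absence. Whether this held for Itgam was not tested. Of 11 markers of other cell types in the table, 10 were too low to be tested, and the neutrophil gene S100a8 was at 0.695 to 2.84 CPM.

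The counting decided which members could be followed. The table has 1 row for each RefSeq transcript, and bases shared by several rows carry no reads. All 11 members with several rows (Rpl19, Rpl22, Rpl30, Rpl31, Rpl34, Rpl35a, Rpl38, Rpl3l, Rps24, Rps27 and Rps27a) had at most 153 reads over the 9 libraries. Rpl38, for example, had 1 read on 17 unshared bases. Rpl3l differed, since it had 0 to 2 reads a library although 779 of its bases were unshared. Rpl26 and Rps27rt, which have 1 row each but share their exons with Gm15772 and Rps27, had no read, and neither had Rpl10l, a testis paralog. In all, 11 members passed the filter on low counts in no comparison, 76 passed in at least 1, and 72 of those had a mean of at least 5 CPM, 41 of the large and 31 of the small subunit. The 4 others were Rps27a, Rpl30 and Rps27, whose low values rest on 95 to 229 unshared bases and do not measure the gene, and Rpl39l, a paralog known from testis, which had 4 to 14 reads a library over its whole length.

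Levels differed widely between members. Levels were scaled by TMM factors, which set the typical gene equal between libraries. The median was 479 CPM per unshared kilobase over 68 members counted over their whole length (1 row, over 99% of bases unshared). These members had a mean of at least 5 CPM over the 9 libraries, and Rps4l was left out. The highest were Rplp1, an acidic protein of the stalk that recruits elongation factors, at 1719 CPM per kilobase, and 3 proteins of the small subunit, Rps9 at 1070, Rps14 at 1059 and Rps15 at 958. Rpl32 reached 1044, with 91.7% of its bases unshared. The lowest tested members were Rpl39l at 0.796 CPM per kilobase, Rps27 at 5.15 and Rps4l, a single-exon relative of Rps4x, at 6.13. Among the members counted over their whole length and above 5 CPM, Rps19bp1 at 32.9, Rpl21 at 35.1 and Rps15a at 54.2 CPM per kilobase came next. Rps15a was given over a transcript of 5134 bases, so the same reads were spread over a longer length than in its neighbours.

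Shared sequence could bear on the counts, and its part in this order was not tested. Ribosomal protein genes have many processed copies in the genome, and over the whole-length members a median of 50% of the 50-base stretches of a transcript occurred in another annotated gene. Across 68 members the level per kilobase had a Spearman correlation of -0.39 with length and of -0.14 with the share of such stretches, which are descriptions over genes that share libraries and base composition. The 7 named pseudogene symbols in the table held 11802 reads over all libraries, of which Rpl14-ps1 alone held 11216. Rpl14, Rps15a and other genes with such copies are uncertain to that extent.

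In LPS-stimulated cells the family took a smaller part of all reads. Ribosomal protein genes took 2.74%, 2.74% and 2.88% of counted reads in the Veh libraries, 2.50%, 2.63% and 2.25% with LPS, and 2.64%, 2.41% and 2.47% with T0+LPS. The means were 2.79% ± 0.0793 (SD, n = 3) in Veh, 2.46% ± 0.196 (SD, n = 3) in LPS and 2.51% ± 0.122 (SD, n = 3) in T0+LPS. All 6 LPS-treated libraries lay below all 3 Veh libraries, while LPS and T0+LPS overlapped. LPS replicate 3 was the lowest of all 9, and without it the LPS mean was 2.57%.

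Once libraries were scaled to their typical gene, the same reads gave Veh the lowest group mean instead of the highest. TMM factors were 1.14 in the Veh libraries and between 0.931 and 0.948 in the others. After this scaling the family summed to 24494 CPM in Veh (SD 599), 26262 CPM in LPS (SD 2292) and 26819 CPM in T0+LPS (SD 1274), each over 3 libraries. LPS overlapped Veh because of replicate 3 at 23723 CPM. Relative to library totals, the median gene itself shifted by -0.28 (log2) in LPS against Veh. The family therefore lay between the typical gene and the library total, and each direction below is given on both scales.

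**Figure D1:**
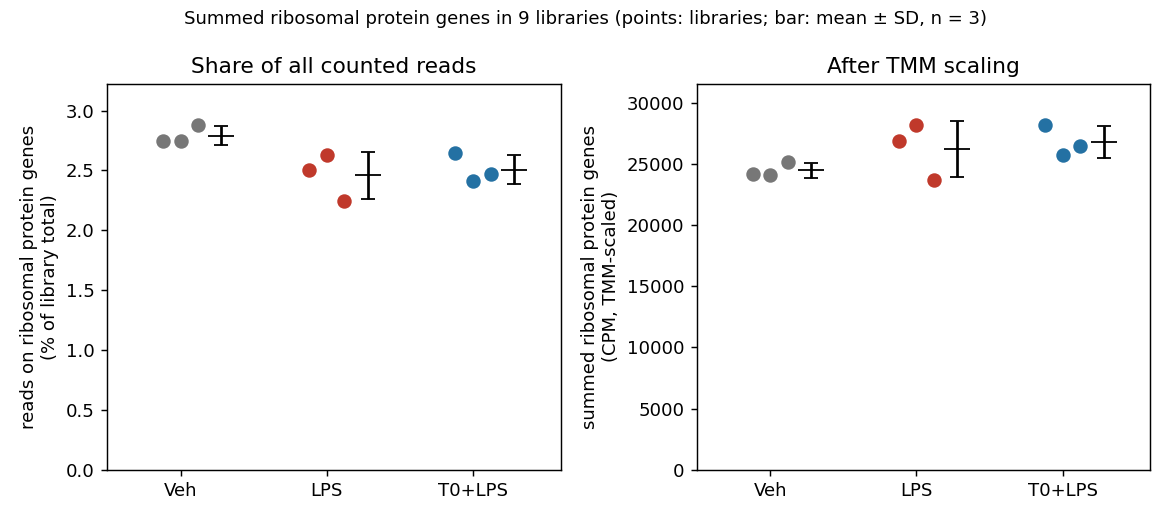
Reads on ribosomal protein genes in each library, as percent of all counted reads (left) and as summed TMM-scaled CPM (right). Points are libraries and bars are mean ± SD of 3. On the left the 6 LPS-treated libraries lie at 2.25% to 2.64%, below the Veh libraries at 2.74% to 2.88%. On the right the Veh mean is the lowest, and the T0+LPS mean is above the LPS mean on both sides.

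The subunits kept their ratio. Reads on large subunit genes were 1.29 ± 0.00540 times (SD, n = 3) those on small subunit genes in Veh, 1.30 ± 0.0134 times in LPS and 1.29 ± 0.00271 times in T0+LPS. The highest single ratio was 1.31, in LPS replicate 3. That library also had the largest scatter of single members around their group means, with an SD of 0.0557 (log2) over 72 members, against 0.0279 to 0.0454 in the other 8 libraries.

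LPS against Veh asks how acute TLR4 stimulation changed these mRNAs. Relative to the typical gene, 21 of 75 tested members rose and 0 fell, by 0.11 to 0.47 on the log2 scale. These calls were at an adjusted p under 0.05 in edgeR's quasi-likelihood test over 9559 genes. They make 28% of the members, against a background of 32.9% of all genes called higher and 31.2% called lower, so the share that rose was near the background. At an unadjusted p under 0.05 there were 24 members higher and none lower, against 66.8% of all genes in either direction. DESeq2 called 20 members higher and 0 lower, and its share over all genes is not given here. The libraries of the groups did not overlap for 12 members, all higher with LPS, while 33.6% of all genes were higher and 33.7% lower without overlap.

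The changes were small and alike. The median over members was 0.10 (log2) and the middle 50% of members lay between 0.07 and 0.15, whereas over all tested genes the median was 0.00 and the middle 50% ran from -0.37 to 0.32. Among members of at least 5 CPM the values ran from -0.03 for Rpl10a to 0.47 for Rps19bp1.

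Rpl7l1, a relative of Rpl7 that acts in maturation of the large subunit, rose most clearly. In mm10 its gene spans chr17:46773907-46782656 (minus strand). It was at 124, 123 and 124 CPM in Veh, 164, 178 and 168 in LPS and 186, 174 and 167 in T0+LPS. All LPS-treated libraries were above all Veh libraries, and LPS and T0+LPS overlapped. The log2 fold change of LPS against Veh was 0.46 (SE 0.046, edgeR adjusted p = 2.0e-07).

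Rps19bp1, which encodes a nucleolar protein that binds Rps19, rose by a similar amount. Its gene spans chr15:80260614-80264306 (minus strand). Its levels were 23.5, 19.6 and 22.4 CPM in Veh, 29.6, 31.5 and 29.7 in LPS and 29.0, 31.7 and 28.4 in T0+LPS, again without overlap between Veh and the others. The log2 fold change of LPS against Veh was 0.47 (SE 0.078, edgeR adjusted p = 6.8e-05).

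The next 3 by size were structural proteins or their paralogs. Rpl24, a protein at the interface of the subunits, was at 239, 253 and 258 CPM in Veh and 299, 313 and 262 in LPS, a log2 fold change of 0.22 (SE 0.057, edgeR adjusted p = 0.0027). The paralog Rpl36al rose by 0.20 (SE 0.055). Rps6, the substrate of the S6 kinases that act downstream of mTOR, was at 258, 259 and 263 CPM in Veh and 293, 315 and 276 in LPS, a log2 fold change of 0.19 (SE 0.048, edgeR adjusted p = 0.0031). For all 3 the LPS libraries lay above the Veh libraries, with LPS replicate 3 the nearest to them.

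**Figure D2:**
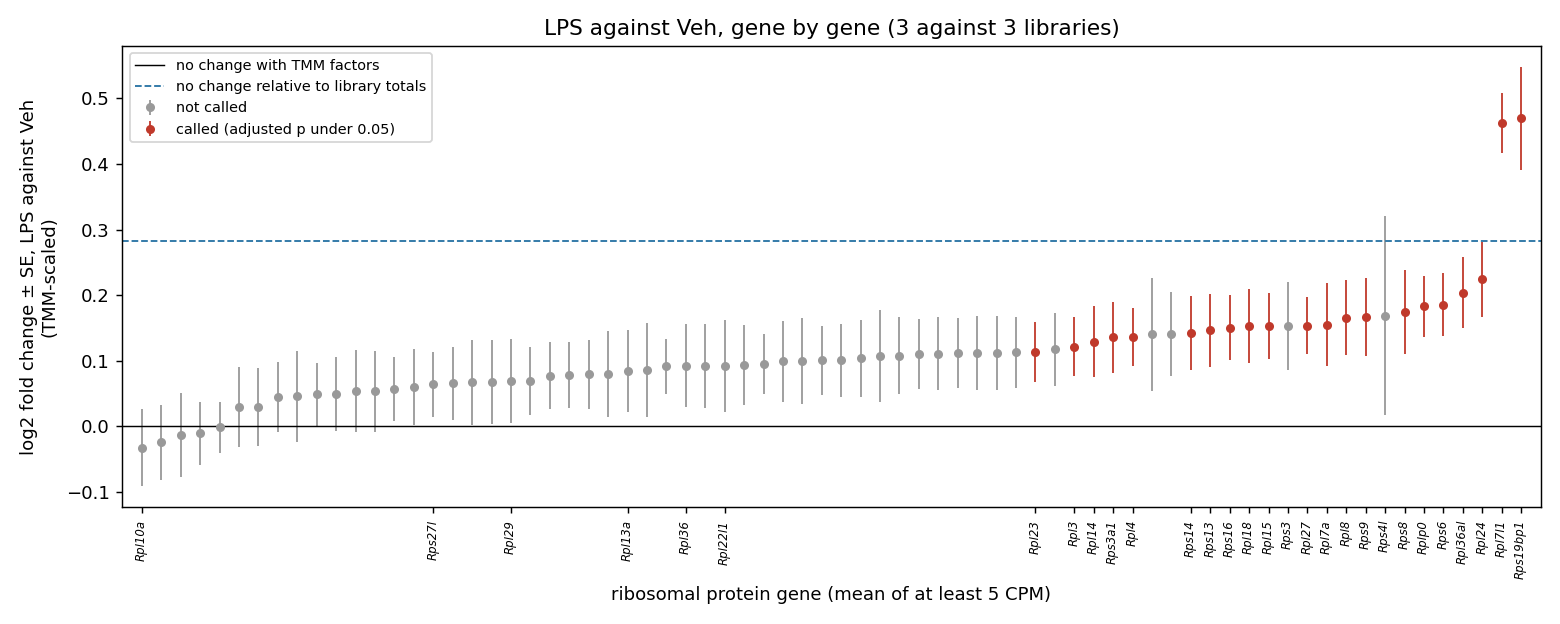
Log2 fold change ± SE of LPS against Veh for 72 ribosomal protein genes of at least 5 CPM, sorted, with called genes in red and names for called genes and some others given in the text. The solid line marks no change with TMM factors and the dashed line, 0.28 above it, no change relative to library totals. Most genes lie between the lines, and Rpl7l1 and Rps19bp1 lie above both.

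Members with known work outside the ribosome had values within the range of the family. Rps3, which also binds the p65 subunit of NF-kB, was at 803, 771 and 853 CPM in Veh and 934, 984 and 775 in LPS, so the groups overlapped through LPS replicate 3, and its log2 fold change was 0.15 (SE 0.068, edgeR adjusted p = 0.06). Rpl13a, which can leave the ribosome to silence inflammatory mRNAs, had 0.08 (SE 0.063). Of the paralogs, Rpl22l1 had 0.09 (SE 0.070), Rps27l 0.06 (SE 0.049) and Rps4l 0.17 (SE 0.15), none of them called.

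By place in the ribosome, 1 of 4 tested genes of the P stalk rose, namely Rplp0 with 0.18 (SE 0.046), and Rpl12 had the smallest value at 0.05. Neither gene of the 5S particle, Rpl5 and Rpl11, whose free products inhibit the p53 ligase Mdm2, was called, with 0.06 and 0.03. Of 5 tested genes of the peptide exit tunnel and its rim 1 rose, Rpl4 with 0.14, and Rpl39 had the smallest value at 0.07. Of 14 tested genes of the 40S head 1 rose, Rps16 with 0.15, and values ran from -0.01 for Rps29 to 0.63 for Rps27a, which was counted on 95 bases with at most 18 reads a library. Of 6 tested paralogs or non-core genes 3 rose, the Rpl7l1, Rps19bp1 and Rpl36al already described.

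The direction turned once levels were taken as shares of library totals. On this scale 59 of 75 members (78.7%) were called lower with LPS and 2 higher, where 56.6% of all genes were called lower and 17.7% higher. The members' median was -0.18 against -0.28 over all genes. The 2 higher were again Rpl7l1, with 0.18 (SE 0.046), and Rps19bp1, with 0.19 (SE 0.078, edgeR adjusted p = 0.042). The groups did not overlap for 55 members lower with LPS, while 58.1% of all genes were lower without overlap.

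The count depended on single libraries. Without LPS replicate 3, 61 members were called higher with TMM factors, against 21 with it, and the median was 0.16. The count was 7 without LPS replicate 1, 8 without LPS replicate 2, 8 without Veh replicate 1, 8 without Veh replicate 2 and 20 without Veh replicate 3. Rps3 was called without LPS replicate 3 (0.24) and without Veh replicate 3 (0.19). It was also called with no filter on low counts (0.13) and in the fit to all 9 libraries (0.15). Leaving out Veh replicate 1 (0.15), Veh replicate 2 (0.12), LPS replicate 1 (0.12) or LPS replicate 2 (0.070) gave no call. The DESeq2 test (0.15) and the replicate block (0.15) gave none either. With library totals and without LPS replicate 3, 50 members were called lower and 1 higher. The share of all genes called is not given for the fits that leave out a library. These counts therefore do not compare the family with other genes.

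The family was then scaled to its own sum, so that a member is compared with the other members (an alternative chosen after the data were seen). Of 75 members Rpl7l1 and Rps19bp1 rose with LPS and 0 fell, where 21.6% of all genes were higher and 33% lower on this scale. No member was at an unadjusted p under 0.05 besides these 2, against 59.3% of all genes. The median SE of members of at least 5 CPM was 0.075 on this scale and 0.057 with TMM factors. Without overlap of the groups, 15 members were higher and 12 lower with LPS, beside 24.9% and 36.6% of all genes. Rpl7l1 made up 0.512%, 0.510% and 0.491% of the family's reads in Veh, 0.609%, 0.633% and 0.707% in LPS and 0.660%, 0.678% and 0.631% in T0+LPS. Its log2 fold change on this scale was 0.36 (SE 0.085, edgeR adjusted p = 0.0016). Rps19bp1 made up 0.0972%, 0.0812% and 0.0891% in Veh, 0.110%, 0.112% and 0.125% in LPS and 0.103%, 0.123% and 0.107% in T0+LPS, and its change was 0.37 (SE 0.10, edgeR adjusted p = 0.0051). Without LPS replicate 3 both were still called, with 0.30 and 0.31, and Rpl10 was among the 2 members called lower, with -0.13.

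**Figure D3:**
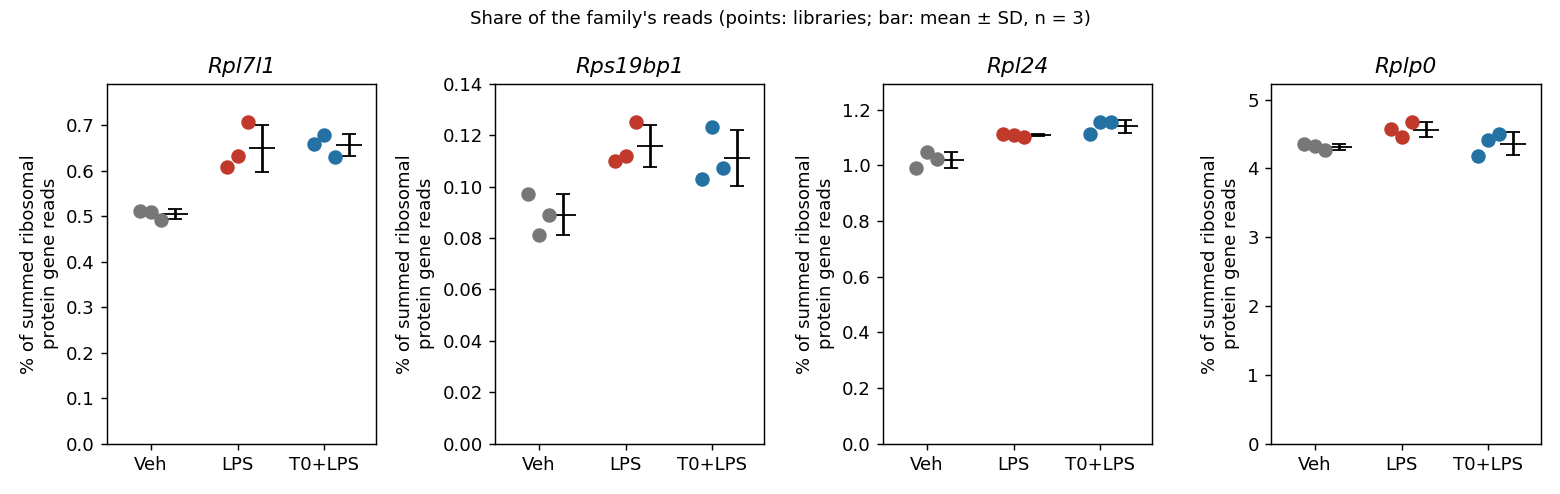
Share of the family's reads taken by Rpl7l1, Rps19bp1, Rpl24 and Rplp0 in each library, in percent of all reads on ribosomal protein genes. Points are libraries and bars are mean ± SD of 3. Rpl7l1 rises from 0.491% to 0.512% in Veh to 0.609% or more in every LPS-treated library. Rpl24 lies at 0.990% to 1.05% in Veh and at 1.10% or more in every LPS-treated library. Rplp0 lies at 4.27% to 4.35% in Veh, 4.45% to 4.67% in LPS and 4.18% to 4.50% in T0+LPS. Neither Rpl24 nor Rplp0 was called in LPS against Veh on this scale.

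Ribosome biogenesis factors had larger values. Of 51 tested genes of this list, whose products assemble ribosomal proteins and rRNA in the nucleolus, 39 rose with LPS and 1 fell, with a median of 0.43 (log2), where 32.9% of all genes rose and 31.2% fell. Relative to library totals 26 were higher and 8 lower with a median of 0.14 (17.7% and 56.6% of all genes). Scaled to the ribosomal protein sum 32 were higher and 1 lower with a median of 0.33 (21.6% and 33% of all genes). Rrs1, which loads the 5S particle, was at 33.9, 36.1 and 36.8 CPM in Veh, 202, 189 and 181 in LPS and 148, 156 and 161 in T0+LPS. Its log2 fold change of LPS against Veh was 2.43 (SE 0.057), followed by 1.38 (SE 0.048) for the GTPase Gtpbp4. Imp3 fell by 0.18 (SE 0.073), and Rrp1b had -0.20 with an SE of 0.32 and was not called. Reads on these factors were 0.274% to 0.278% of each Veh library and 0.322% to 0.325% of each LPS library, so that they took more of the library where the ribosomal protein genes took less.

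Other TOP mRNAs had values near those of the family. Of 18 tested, 9 rose and 2 fell with a median of 0.12, and relative to library totals 2 were higher and 11 lower with a median of -0.16, against the same shares of all genes (32.9% and 31.2%, and 17.7% and 56.6%). Btf3 had the largest increase at 2.37 (SE 0.40), on 86 reads in all. Naca came next with 0.69 (SE 0.26), on 255 reads in all. Eif4b fell by 0.16 and Nap1l1 fell by 0.13.

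Of 12 tested genes of the RNA polymerase I machinery, which makes rRNA, 4 rose and 3 fell, near the 32.9% and 31.2% of all genes. The polymerase subunit Twistnb rose by 0.76 (SE 0.058) and the TBP-associated factor Taf1d by 0.64 (SE 0.16), while the subunits Znrd1 and Cd3eap had log2 fold changes of -0.47 (SE 0.096) and -0.37 (SE 0.096). Of 28 genes that control TOP mRNA translation or ribosomal protein gene transcription, 18 were tested. Of these 18, 10 rose and 4 fell, beside the same shares of all genes. Myc, Tsc1 and Mlst8 were among the genes not tested, with no read in any library. As for Itgam, a level of 0 need not mean absence, and whether shared bases account for it was not tested. Larp1, which holds TOP mRNAs, rose by 1.21 (SE 0.041) and the cap-binding protein Eif4e by 1.19 (SE 0.053), while Mxd1, an antagonist of Myc, had -0.75 (SE 0.072) and the Eif4e inhibitor Eif4ebp2 -0.62 (SE 0.051). Relative to library totals these counts were 2 higher and 5 lower for the polymerase list and 5 higher and 7 lower for the control list, where 17.7% of all genes were higher and 56.6% lower.

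**Figure D4:**
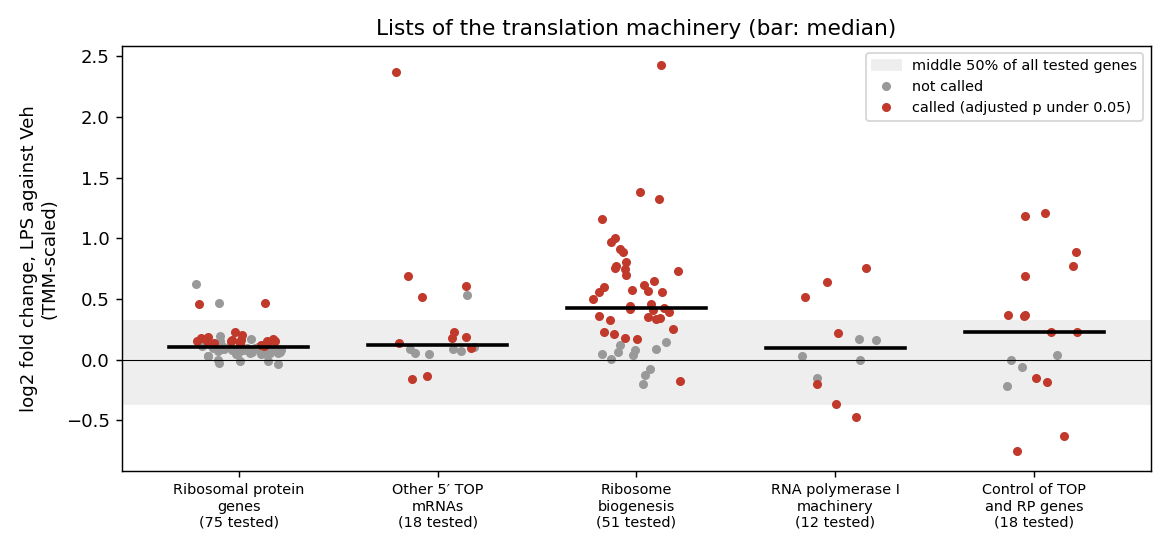
Log2 fold change of LPS against Veh (TMM-scaled) for ribosomal protein genes and 4 lists of the translation machinery. Each point is a tested gene, red where called, bars are medians and the grey band holds the middle 50% of all tested genes. Ribosomal protein genes crowd around 0.10 and biogenesis factors spread upward around 0.43.

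T0+LPS against LPS asks what the LXR agonist changed in stimulated cells. Of 76 tested members 0 were called higher and 0 lower by edgeR's quasi-likelihood test, and DESeq2 also called 0 and 0. Among all 9348 genes 1.35% were called higher and 1.83% lower, so few calls would fall on a group of this size at the background rate. At an unadjusted p under 0.05 there were 4 members, Rpl29, Rpl36, Rps29 and Rps15a, all higher, against 13.9% of all genes. The members' median was 0.04 (log2), 53 values were above 0 and 23 below, and among members of at least 5 CPM they ran from -0.10 for Rps4l to 0.26 for Rpl29. The 95% intervals of those members lay within -0.45 and 0.41, the lower bound from Rps4l at 4.71 to 6.92 CPM and the upper from Rpl29. With T0 added, the groups did not overlap for 2 members higher and 1 lower, and over all genes for 9.51% and 9.62%.

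Rpl29, a small basic protein of the large subunit, was the member nearest to a call (edgeR adjusted p = 0.064) and is described after its values were seen. Its gene spans chr9:106429539-106431567 (plus strand). It was at 45.9, 45.1 and 46.1 CPM in Veh, 49.0, 51.3 and 43.2 in LPS and 60.9, 54.7 and 56.3 in T0+LPS, with every T0+LPS library above every other. The log2 fold change against LPS was 0.26 (SE 0.071). As a share of the family's reads it was 0.190%, 0.187% and 0.183% in Veh, 0.182% in each LPS library, and 0.216%, 0.213% and 0.212% in T0+LPS.

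Rpl29 passed the threshold under some settings. It was called with no filter on low counts (adjusted p = 0.0061), in the fit to all 9 libraries (adjusted p = 0.026), with the replicate number as a block (adjusted p = 0.030) and without LPS replicate 2 (adjusted p = 0.039), all with edgeR. Scaled to the family sum it was not called (0.23, SE 0.087, edgeR adjusted p = 0.49), where 0.385% of all genes were higher and 0.417% lower and 0 members were called. On that scale Rpl29 was the 1 member at an unadjusted p under 0.05, against 6.69% of all genes. The median SE of members of at least 5 CPM was 0.081 there and 0.062 with TMM factors. Scaled this way, the groups did not overlap for 12 members higher and 8 lower with T0 added, beside 3.65% and 7.1% of all genes. Rps29, a zinc-binding protein of the 40S head, with 0.17 (SE 0.071), was called with no filter and without LPS replicate 2.

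The other named members had small values in this comparison. They were 0.05 (SE 0.054) for Rpl7l1, -0.03 (SE 0.073) for Rps19bp1, 0.00 (SE 0.058) for Rps6, -0.02 (SE 0.067) for Rps3, 0.07 (SE 0.068) for Rpl13a, 0.04 (SE 0.067) for Rpl36al, 0.00 (SE 0.070) for Rpl22l1 and 0.09 (SE 0.055) for Rps27l. Rpl39l, with 4 to 14 reads a library, had 0.22 (SE 0.38). By role no list had a call, and list medians ran from 0.02 to 0.07. Of the surrounding genes 1 was called, Rrs1, which fell by 0.30 (SE 0.054, edgeR adjusted p = 0.0047).

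Short transcripts tended to have the higher values. Over 72 members the Spearman correlation of the log2 fold change with transcript length was -0.40, a description over genes that share the same 6 libraries. Single libraries also differed in this respect. The correlation of a member's deviation from its group mean with length was 0.13, -0.34 and 0.27 in the LPS libraries and -0.16, 0.22 and -0.02 in the T0+LPS libraries, so libraries of 1 group lay as far apart as the value itself. Its part in the values for short genes such as Rps29, at 390 bases, was not tested.

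**Figure D5:**
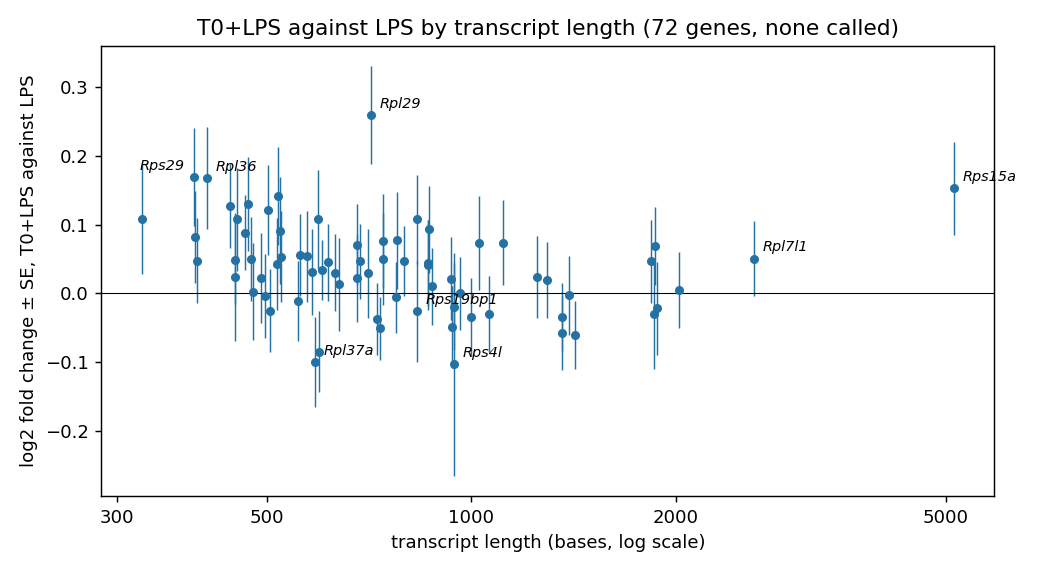
Log2 fold change ± SE of T0+LPS against LPS for 72 ribosomal protein genes of at least 5 CPM, against transcript length in bases on a log axis. Rpl29 stands highest at 0.26, most short transcripts lie above 0, and no gene was called.

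T0+LPS against Veh sets both agents together against unstimulated cells, and shares its Veh libraries with LPS against Veh and its T0+LPS libraries with T0+LPS against LPS. With TMM factors 41 of 75 members (54.7%) rose and 0 fell, where 32.4% of all genes were called higher and 32.9% lower. DESeq2 called 44 members higher and 0 lower, and its share over all genes is not given here. The members' median was 0.12 against -0.03 over all genes. The groups did not overlap for 47 members, all higher, and 35.6% of all genes were higher without overlap.

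The largest increases were 0.49 (SE 0.044) for Rpl7l1, 0.42 (SE 0.078) for Rps19bp1, 0.30 (SE 0.053) for Rpl29, 0.27 (SE 0.039) for Rpl24 and 0.23 (SE 0.051) for Rpl36. Rps6 rose by 0.16, Rpl13a by 0.13, Rps27l by 0.13 and Rps3 by 0.11, and Rpl36al rose by 0.22. Rpl22l1 had 0.07 and Rps4l 0.04, neither called. Rpl13a was not called without Veh replicate 1 (0.13), Veh replicate 2 (0.098) or T0+LPS replicate 1 (0.084), nor Rps3 without Veh replicate 1 (0.10) or Veh replicate 2 (0.072). In the 40S head 13 of 14 tested genes rose, all but the thinly counted Rps27a. In the P stalk 3 of 4 rose, Rplp0 with 0.12, Rplp1 with 0.17 and Rplp2 with 0.21. In the exit tunnel 2 of 5 rose, Rpl35 with 0.16 and Rpl23a with 0.14, and neither gene of the 5S pair was called. For the 40S head in LPS against Veh the count was 1 of 14 with a median of 0.10, against 0.13 here. The median SE of members was 0.057 in LPS against Veh and 0.043 here.

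Here too the direction depended on the scale. Relative to library totals 53 members were called lower and 1 higher (Rpl7l1), where 57.3% of all genes were called lower and 17.2% higher. Scaled to the family's own sum, 4 members rose, Rpl7l1 with 0.38, Rps19bp1 with 0.31, Rpl29 with 0.19 and Rpl24 with 0.16, and 0 fell. On that scale 22.8% of all genes were called higher and 39.8% lower. No other member was called relative to the rest of the family. Without overlap of the groups, 20 members were higher and 16 lower on that scale, beside 24.6% and 42.7% of all genes.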

How the data were processed

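PolyA-selected RNA of 9 BMDM libraries, 3 each of Veh, LPS and T0+LPS, was sequenced. The authors removed adaptors with cutadapt, used HISAT2 on the mm10 transcriptome and featureCounts on RefSeq annotation, and deposited raw read counts per transcript, not normalized. The other 2 deposited tables hold the authors' own comparisons (fold values, p-values and gene names) and were not used. Groups follow the sample labels.

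Rows of 1 symbol were summed over the whole table. Each pair of groups was fitted in R 4.3.3 by the quasi-likelihood method of edgeR 4.0.16, using TMM scaling, the filterByExpr rule and Benjamini-Hochberg adjustment over all tested genes, called at an adjusted p under 0.05. The code was tested on simulated data. Alternatives were DESeq2 1.42.0, other scalings and filters, all 9 libraries in 1 fit, a replicate block, and leaving out each library. Unshared bases were counted from the exon positions of the rows, shared 50-base stretches from GENCODE vM21 transcripts, and promoters were taken from RefSeq (GRCm38.p6). Named genes were the 5 largest called changes each way at a mean of at least 5 CPM, the highest and lowest levels per kilobase, paralogs, Rps3, Rps6 and Rpl13a, extremes of the role lists, and the 2 largest changes each way of the other lists. The values of 1 member are not reported here by name. The members and lists were chosen with earlier results of these data known.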

Additional observations from a re-analysis of the deposited data

How the results depend on the processing

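The scale decided the direction against Veh. Relative to library totals, LPS against Veh had 2 members higher and 59 lower with a median of -0.18, and the signs of Rpl13a (-0.20), Rpl22l1 (-0.19), Rpl24 (-0.059), Rpl36al (-0.079), Rps27l (-0.22) and Rps6 (-0.10) turned. With LPS replicate 3 also left out (chosen after seeing the data) there were 1 higher and 50 lower, with a median of -0.12, and Rpl13a (-0.13), Rpl36al (-0.050), Rps27l (-0.19) and Rps6 (-0.060) turned. T0+LPS against Veh had 1 higher and 53 lower relative to library totals, with a median of -0.14, and Rpl13a (-0.13), Rpl22l1 (-0.19), Rpl36 (-0.028), Rpl36al (-0.042), Rps27l (-0.14), Rps3 (-0.16) and Rps6 (-0.11) turned. A change of sign with no call on either scale was not counted. Scaled to the family's sum (chosen after seeing the data), 2 members were higher in LPS against Veh, 2 higher and 2 lower there without LPS replicate 3, and 4 higher in T0+LPS against Veh. Where the scale alone was changed, the scale made the difference. The further change without LPS replicate 3 comes with fewer samples and is given without the share of all genes called. Its cause was not tested.

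Leaving out each library in turn gave 7 to 61 members called higher in LPS against Veh, 0 to 2 in T0+LPS against LPS and 31 to 48 in T0+LPS against Veh, and 0 lower in each. The share of all genes called is not given for these fits, so the ranges describe the members alone. For T0+LPS against LPS, 2 were called higher with no filter, 1 in the fit to all 9 libraries and 1 with the replicate block (Rpl29 in each, with Rps29 in the first). Correlations of same-numbered deviations lay between -0.05 and 0.05, so no strong pairing by replicate number was seen. Differently numbered libraries were not compared, and a weak pairing was not tested. With the replicate block 15 members were called higher in LPS against Veh, again without the share of all genes. DESeq2 and its size factors, TMM factors without the family, the minimum of 10 counts and 1 row per transcript left every count within 1.5 times. Low counts limit Rps4l and Rpl39l, and few unshared bases limit Rps27a, Rpl30 and Rps27.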
